A study of Danio rerio with 3 samples.

Results

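The mitosis and kinetochore genes are a set of 51 features, of 31903 counted, whose symbols name the machinery that condenses, attaches and separates chromosomes. They were chosen by symbol alone: the Cenp and Cdca series, the mitotic cyclins and their kinase, the Aurora, Plk1 and Bub kinases, the Ndc80 complex, condensin, and single genes such as mki67 and top2a. The 51 features carry 50 symbols, since ube2c appears as ENSDARG00000114670 and as ENSDARG00000101618. For ENSDARG00000101618 the current symbol is DNTTIP1. Of the rest, aurkaip1 was taken in by its first letters and is known from mammals as a mitochondrial protein, and cenpj is now called cpap, a centriole gene. A UMI, a molecular tag that marks 1 captured transcript, was seen for 49 of the features in the thymus, 49 in the kidney marrow and 42 in the scale. The feature cenpv had no UMI in any library, and cdca9 had 1.

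The cells came from zebrafish of the genotype lck:GFP, in which the promoter of the lymphocyte kinase gene lck drives green fluorescent protein. The series holds thymus cells sorted as high for GFP, kidney marrow cells sorted as low and scale cells sorted as low, with 1 droplet library for each tissue. The labels call all of them lymphocytes and say nothing of the number or age of the fish. With 1 library in each group no test was made, and tissue, sort gate and library cannot be told apart.

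A cell copies its DNA in S phase, doubles its kinetochores, and then in G2 and mitosis accumulates cyclin B with Cdk1, condenses its chromosomes, builds a spindle and destroys the cyclins through the anaphase-promoting complex. Many of these genes are transcribed mainly in dividing cells, so their RNA marks cells in cycle. In the thymus of vertebrates, T cell precursors divide in bursts around the rearrangement of their receptor genes, which needs the recombinase gene rag1, and before and during the first display of the co-receptors CD4 and CD8.

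After filtering, 4574 thymus, 983 kidney marrow and 375 scale cells were left, with 12405147, 4987653 and 1279044 UMIs. The median UMIs per cell were 1370 in the thymus, 4044 in the kidney marrow and 3178 in the scale. No barcode of a called cell was shared between any pair of libraries (0 in each of 3 pairs). The T cell receptor gene trbc1, a defining marker of T cells, had a UMI in 98.1% of thymus cells with under 10 UMIs of the set per 1000, in 91.6% of such marrow cells and in 87.0% of such scale cells, at medians of 1822, 4038 and 3323.5 UMIs. It had a UMI, after thinning, in 0 of 18 marrow cells and 3 of 6 thymus cells with the erythroid or myeloid list at 100000 CPM or more. Intervals below are exact 95% counting intervals, and they cover neither the spread between fish nor that between libraries.

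Summed over the set, the genes held 59730 UMIs in the thymus, 5138 in the kidney marrow and 324 in the scale. Per 1000000 UMIs (CPM) this is 4815 in thymus cells (4776 to 4854), 1030 in marrow cells (1002 to 1059) and 253 in scale cells (226 to 282). The thymus library thus stood highest and the scale library lowest, with no overlap of the intervals. The ratio was 4.67 for thymus over marrow (4.54 to 4.81), 19.01 for thymus over scale (17.0 to 21.3) and 4.07 for marrow over scale (3.63 to 4.56). In the marrow 13.2% of these UMIs came from 1 cell, in the scale 32.1% and in the thymus 0.554%. Without the cell that held the most, the ratio was 27.6 for thymus over scale and 5.19 for marrow over scale. With every cell given the same weight the levels were 2511, 309 and 186 CPM in thymus, marrow and scale, and marrow over scale came down to 1.66.

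**Figure D1:**
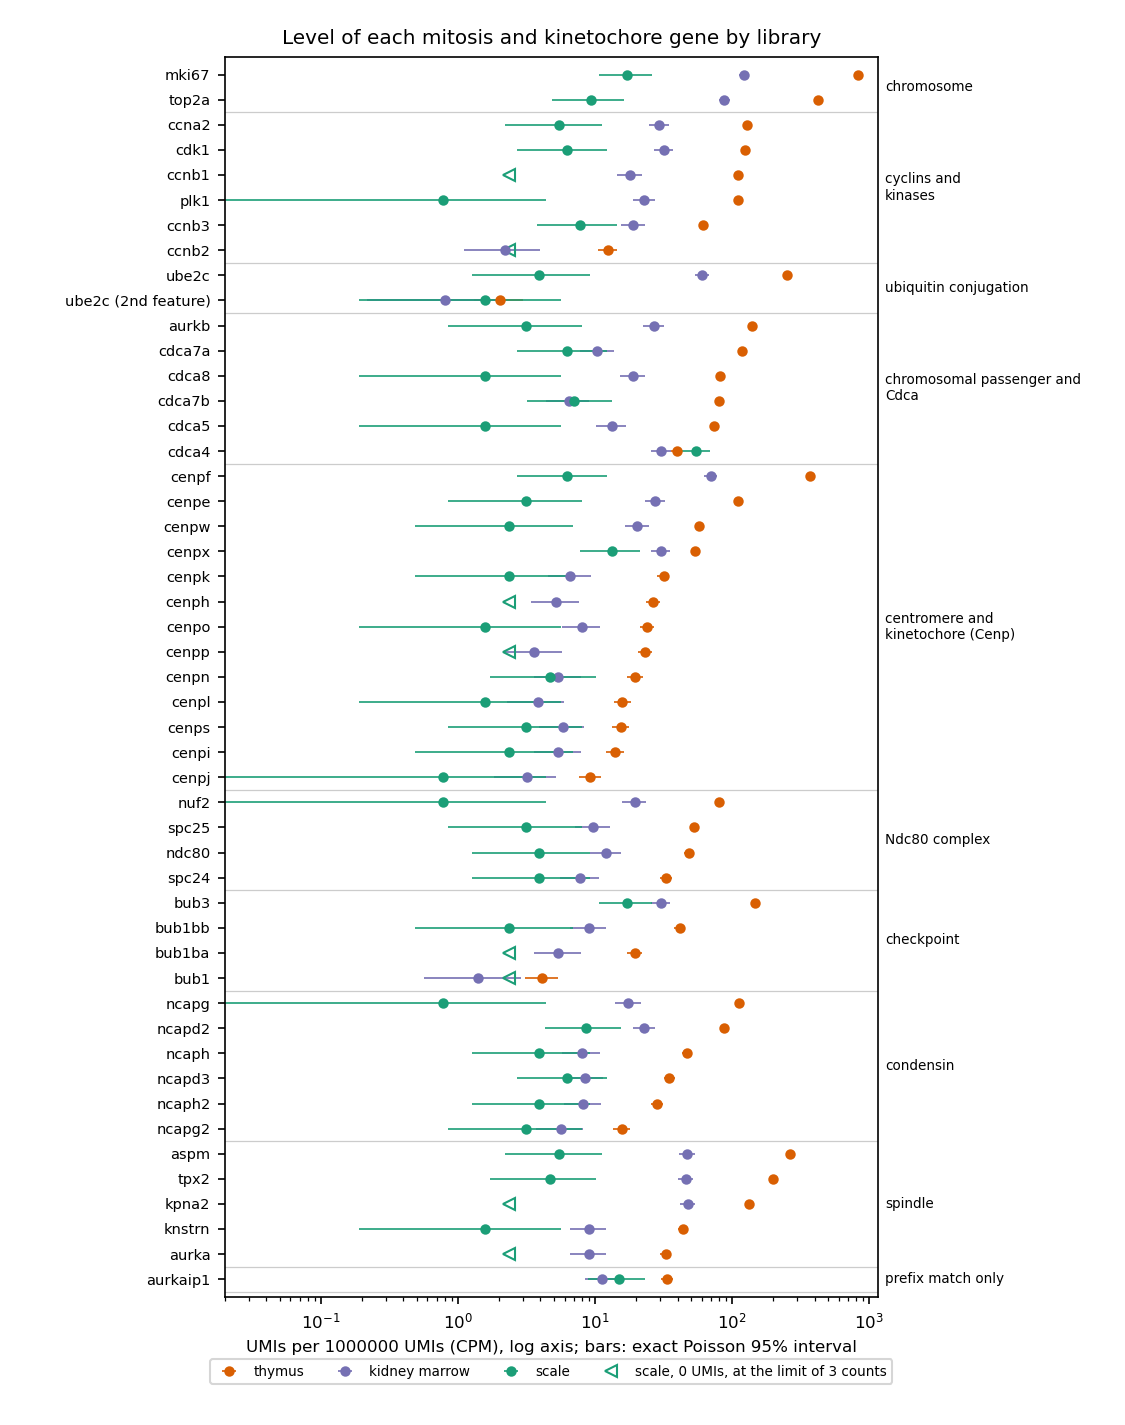
CPM (log axis) of each feature with a UMI in more than 1 library, in the thymus (orange), kidney marrow (purple) and scale (green), grouped by role. Points are summed over the cells of 1 library, bars are exact Poisson 95% intervals, and open triangles mark 0 scale UMIs at the limit of 3 counts. The thymus point lies to the right of the other points for every feature but cdca4, which stood at 39.3 CPM in the thymus and 54.7 CPM in the scale.

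Among the cyclins and kinases that drive entry into mitosis, all 6 features were at least 2-fold higher in the thymus than in the marrow, where 23.3% of all features were. The S and G2 cyclin ccna2 stood at 129 CPM in thymus cells, 29.5 in marrow cells and 5.47 in scale cells, a ratio of 4.38 for thymus over marrow (3.70 to 5.22) and of 23.6 for thymus over scale (11.4 to 58.7). Its partner kinase cdk1 stood at 125 CPM in thymus cells, 31.7 in marrow cells and 6.25 in scale cells, and all 8 scale UMIs of cdk1 lay in 1 cell. The kinase plk1, which acts on centrosomes and kinetochores, stood at 110 CPM in thymus cells, 22.9 in marrow cells and 0.782 in scale cells, the last from 1 UMI. The mitotic cyclin ccnb1 had 1379 UMIs in thymus cells, 90 in marrow cells and 0 in scale cells. At the limit of 3 counts, ccnb1 stood 47.4-fold higher in the thymus than in the scale, which is no firm lower bound. Its relative ccnb3 differed less, at 61.7 CPM in thymus cells, 19.05 in marrow cells and 7.82 in scale cells. The ubiquitin-conjugating enzyme gene ube2c (ENSDARG00000114670), which serves the anaphase-promoting complex, stood at 249.6 CPM in thymus cells, 60.3 in marrow cells and 3.91 in scale cells. The other ube2c feature, ENSDARG00000101618, had 25 UMIs in thymus cells, 4 in marrow cells and 2 in scale cells, too few for a ratio to be read.

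The proliferation gene mki67, whose protein coats mitotic chromosomes, had 10241 UMIs in thymus cells, 606 in marrow cells and 22 in scale cells. Its ratio was 6.79 for thymus over marrow (6.26 to 7.39) and 48.0 for thymus over scale (31.7 to 76.6), and 72.7% of its scale UMIs lay in 1 cell. The topoisomerase gene top2a, which untangles sister DNA, stood at 425 CPM in thymus cells, 87.6 in marrow cells and 9.38 in scale cells. The thymus over marrow ratio of mki67 thus lay above the 4.67 of the summed set, and that of top2a, 4.85 (4.40 to 5.36), near it.

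The chromosomal passenger complex corrects attachments of chromosomes to the spindle. Its kinase aurkb stood at 139 CPM in thymus cells, 26.9 in marrow cells and 3.13 in scale cells, and its subunit cdca8 (borealin) at 81.6 in thymus cells, 18.8 in marrow cells and 1.56 in scale cells. The thymus over marrow ratios of both, 5.19 and 4.33, were near that of the summed set. The cohesin-protecting gene cdca5 (sororin) stood at 73.4 CPM in thymus cells, 13.2 in marrow cells and 1.56 in scale cells. The paralogs cdca7a and cdca7b, whose mammalian counterpart helps the remodeler HELLS maintain DNA methylation, are no part of the spindle machinery. Among the members compared, they had the largest thymus over marrow ratios. The ratio was 11.3 for cdca7a (8.56 to 15.2), from 118 CPM in the thymus against 10.4 in the marrow, and 12.5 for cdca7b (8.82 to 18.4), from 80.5 CPM in the thymus against 6.42 in the marrow. Between marrow and scale these paralogs did not separate: cdca7b had 6.42 CPM in the marrow and 7.04 in the scale, a ratio of 0.912 (0.425 to 2.17).

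In cdca4, a gene of the SERTA family of transcription cofactors, the scale library stood highest. It stood at 39.3 CPM in thymus cells (35.9 to 43.0), 30.5 in marrow cells (25.8 to 35.7) and 54.7 in scale cells (42.7 to 69.1). The thymus over scale ratio was 0.719 (0.559 to 0.937), and cdca4 was the only member with at least 50 UMIs that was higher in the scale than in the thymus. Its scale UMIs were spread, with 4.29% in the cell that held the most.

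Of the 14 Cenp features, 13 had enough UMIs to compare thymus with marrow, and 12 of these were at least 2-fold higher in the thymus, against the 23.3% of all features. The large kinetochore protein gene cenpf stood at 370 CPM in thymus cells, 70.0 in marrow cells and 6.25 in scale cells, ratios of 5.29 for thymus over marrow (4.75 to 5.92) and 59.2 for thymus over scale (30.0 to 137). The kinetochore motor gene cenpe stood at 109.8 CPM in thymus cells, 27.5 in marrow cells and 3.13 in scale cells. The exception was cenpx, whose histone-fold protein works at the centromere and in repair of DNA crosslinks. It stood at 53.9 CPM in thymus cells, 30.3 in marrow cells and 13.3 in scale cells, a ratio of 1.78 for thymus over marrow (1.49 to 2.14). In the constitutive centromere network, which sits on centromeric chromatin throughout the cycle, cenpw stood at 57.4 CPM in thymus cells, 20.25 in marrow cells and 2.35 in scale cells, and cenph had 329 UMIs in thymus cells, 26 in marrow cells and 0 in scale cells.

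The Ndc80 complex is the microtubule grip of the kinetochore. Its subunit nuf2 stood at 80.2 CPM in thymus cells, 19.4 in marrow cells and 0.782 in scale cells, spc25 at 53.0 in thymus cells, 9.62 in marrow cells and 3.13 in scale cells, and ndc80 at 48.1 in thymus cells, 12.0 in marrow cells and 3.91 in scale cells. Thymus over marrow was 4.12 for nuf2 (3.35 to 5.13), 5.50 for spc25 (4.10 to 7.54) and 4.001 for ndc80 (3.06 to 5.31), so the intervals of the 3 overlapped. The spindle checkpoint holds anaphase back until every kinetochore is attached. Its gene bub3 stood at 148 CPM in thymus cells, 30.3 in marrow cells and 17.2 in scale cells, and bub1bb at 41.4 in thymus cells, 9.02 in marrow cells and 2.35 in scale cells. The paralog bub1ba had 242 UMIs in thymus cells, 27 in marrow cells and 0 in scale cells. For bub3 the marrow and scale lay close, with a ratio of 1.76 (1.12 to 2.89).

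Condensin folds chromosomes for mitosis, condensin I (ncapg, ncapd2, ncaph) after the nuclear envelope breaks down and condensin II (ncapg2, ncapd3, ncaph2) inside the nucleus before that. The subunit gene ncapg had 1388 UMIs in thymus cells, 87 in marrow cells and 1 in scale cells, a thymus over marrow ratio of 6.41 (5.16 to 8.06). The subunit gene ncapd2 stood at 87.2 CPM in thymus cells, 22.9 in marrow cells and 8.60 in scale cells, and ncaph at 46.5 in thymus cells, 8.02 in marrow cells and 3.91 in scale cells. All 6 subunits were at least 2-fold higher in the thymus than in either other library, where 23.3% of all features were higher over the marrow and 19.1% over the scale. Between marrow and scale the condensin II gene ncapd3 did not separate, at 8.42 CPM in the marrow and 6.25 in the scale, a ratio of 1.35 (0.624 to 3.32).

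Among the spindle genes, aspm, which acts at spindle poles, stood at 267 CPM in thymus cells, 47.1 in marrow cells and 5.47 in scale cells. The spindle assembly factor tpx2, an activator of Aurora A, stood at 200.3 CPM in thymus cells, 45.9 in marrow cells and 4.69 in scale cells. The importin gene kpna2 had 1637 UMIs in thymus cells, 236 in marrow cells and 0 in scale cells. At the limit of 3 counts this is at least 56.3-fold for thymus over scale and 20.2-fold for marrow over scale. Of the marrow UMIs of kpna2, 25.8% lay in 1 cell and 95.8% in 10 cells. The limit covers counting error only and not such spread between cells, so neither 56.3 nor 20.2 is a firm lower bound. The Aurora A gene aurka had 406 UMIs in thymus cells, 45 in marrow cells and 0 in scale cells. The mitochondrial aurkaip1 stood at 33.6 CPM in thymus cells, 11.2 in marrow cells and 14.9 in scale cells. Its thymus over marrow ratio, 2.99 (2.26 to 4.03), was near the 2.79 of kpna2 (2.43 to 3.21). Against the scale it differed less, at 2.26 for thymus over scale (1.43 to 3.80) and 0.756 for marrow over scale (0.442 to 1.35). So this gene, taken in by its first letters, counts among the members at least 2-fold higher in the thymus than in the marrow.

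Counts over the set were made on UMIs plus 3, for features with at least 50 UMIs in the pair. For thymus over marrow, 46 of 48 such members were at least 2-fold higher and 0 were lower, where 23.3% of all features were higher and 10.8% lower. For thymus over scale, 45 of 48 were higher and 0 lower, where 19.1% of all features were higher and 15.0% lower. For marrow over scale, 20 of 28 were higher and 0 lower, where 5.67% of all features were higher and 10.7% lower. At 4-fold, 25, 39 and 15 members were higher in these pairs, where 7.36, 6.84 and 3.39% of all features were, and 0 were lower, where 5.73, 5.37 and 1.83% were. These 3 pairs share libraries, so the counts do not stand apart from each other. For marrow over scale, only cdca4, with 70 scale UMIs, reached 50 UMIs in the scale alone. The other members compared there passed the minimum largely or wholly through the marrow. So the marrow over scale counts and median describe members picked partly by their marrow level. The median log2 ratio of the members was 2.02 for thymus over marrow, 3.22 for thymus over scale and 2.23 for marrow over scale, against 0.41, 0.10 and -0.28 for all features. For marrow over scale, the 8 members that were not past 2-fold were ccnb3, cenpx, ncapd3, cdca7a, spc25, cdca4, bub3 and aurkaip1.

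In a list of other mitosis genes, 58 of 70 were at least 2-fold higher and 1 lower in the thymus than in the marrow. For thymus over scale, 60 of 70 were higher and 1 lower, and for marrow over scale 27 of 45 were higher and 0 lower. In a list of DNA replication genes, 44 of 47 were higher and 0 lower for thymus over marrow, and 42 of 47 higher and 0 lower for thymus over scale. For marrow over scale, 5 of 26 were higher and 3 lower. Over all features, 23.3% were higher and 10.8% lower for thymus over marrow, and 19.1 and 15.0% for thymus over scale. For marrow over scale these shares were 5.67 and 10.7%. The replication genes with the most UMIs were rrm2, a subunit of ribonucleotide reductase, pcna, the sliding clamp, and chaf1a, which loads histones. They stood at 889, 607 and 225 CPM in thymus cells, at 98.2, 131 and 43.9 in marrow cells and at 20.3, 66.5 and 15.6 in the scale. Of the other mitosis list the leading genes were the chromatin proteins hmgb2a, h2afx and hmgb2b, at 4146, 2612 and 2361 CPM in thymus cells, 808, 52.5 and 283 in marrow cells and 456, 11.7 and 93.8 in the scale.

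How the UMIs were spread over cells was read after each cell was thinned to 1000 UMIs, which left out 1344 thymus and 36 scale cells below that depth. A cell with at least 10 UMIs of the set among its 1000 is called mitosis-rich here, which is a range of a score and not a cell type. There were 345 such cells of 3230 in the thymus, or 10.7% (9.64 to 11.8%), 7 of 983 in the marrow, or 0.712% (0.287 to 1.46%), and 1 of 339 in the scale, or 0.295% (0.00747 to 1.63%). At a minimum of 5 UMIs there were 592 in thymus cells (18.3%), 22 in marrow cells (2.24%) and 2 in scale cells (0.590%). Within 2 UMIs of the minimum of 10 lay 208 thymus, 5 marrow and 1 scale cells, so the share depends on where the range begins. With thinning by another random seed, the scale had 0 such cells of 339, where the exact interval reaches up to 1.08%.

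**Figure D2:**
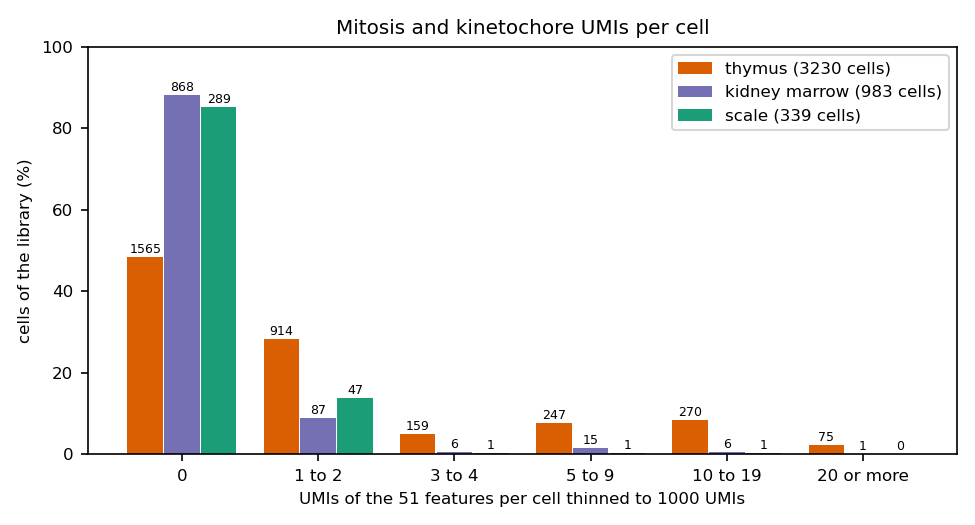
Share of cells (%) by their UMIs of the set after thinning to 1000 UMIs per cell, in the thymus (orange), kidney marrow (purple) and scale (green), with the number of cells above each bar. The bins from 5 upward hold 592 thymus cells, 22 marrow cells and 2 scale cells.

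In the thymus and marrow, mitosis-rich cells were also deeper. Their median was 5987 UMIs in the thymus, against 1822 in the other thymus cells, and 16261 in the marrow, against 4038 in the other marrow cells. The 1 scale cell had 2854 UMIs, against a median of 3323.5 in the others. Scrublet made no doublet call in the thymus or marrow, so doublets were not controlled there, and their part in the result was not tested. In the thymus, the mitosis-rich cells held 61.0% of the set's UMIs and 21.8% of all UMIs. In the marrow, the 22 cells with at least 5 UMIs per 1000 held 75.7% of the set's UMIs, 79.0% of mki67 UMIs and 8.85% of all UMIs. In the scale, the 2 such cells held 40.4% of the set's UMIs and 90.9% of mki67 UMIs. These shares describe how concentrated the signal was, since the same UMIs chose the cells.

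In the other marrow cells, picked for few UMIs of the set, the summed set lay below its level in free RNA. The same UMIs picked these cells, so their low level is only a description. All marrow cells together stood at 1030 CPM, above the level in free RNA. In 518348 marrow barcodes with 1 to 99 UMIs, the set stood at 523 CPM (501 to 546), and in the 961 marrow cells with under 5 UMIs per 1000 it stood at 275 CPM. For mki67 the values were 27.9 CPM in those cells and 42.6 in the barcodes, a ratio of 0.656 (0.517 to 0.832), and for kpna2 they were 2.20 and 22.8 CPM. Of 23 members with at least 50 UMIs in the cells and barcodes added together, 16 had an interval wholly below 1 and 0 wholly above. No share over all features is given beside this count, and it holds for cells picked for few UMIs of the set. The 2 with a ratio over 1 were cdca4, at 31.5 CPM in the cells and 29.5 in the barcodes, and ccna2, at 10.6 and 9.23. The thymus and scale matrices list no barcodes under 500 UMIs, so this background was not analysed there.

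The 22 marrow cells with at least 5 UMIs per 1000 were mixed in kind. They had between 2632 and 57858 UMIs and 8 to 43 of the members detected. Of these cells 12 had a trbc1 UMI, against 885 of the 961 other marrow cells, although their median depth was 15630 UMIs against 4023. The natural killer and T cell cytokine receptor gene il2rb stood at 38.5 CPM in them (22.4 to 61.7), against 285 in the others (270.0 to 301). In contrast, gzmk, a granzyme gene of cytotoxic cells, stood at 308 CPM in them and 313 in the others. The whole natural killer and cytotoxic list, which holds both genes, stood at 909 CPM in them (822 to 1002) and 2756 in the others (2708 to 2804). UMIs of gzmk also lay in cells with cd4-1 UMIs, such as 1 with 22 of gzmk and 6 of cd4-1. So gzmk alone does not mark cytotoxic cells here.

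Of the 10 cells with no trbc1 UMI, 2 had the erythroid list, led by hemoglobin genes, at 342325 and 541727 CPM, and 1 had the myeloid list at 119517 CPM. The other 7 fell under 100000 CPM for both lists. A cell among them had the T cell list at 1230 CPM, with 2 cd4-1, 2 lck and 8 gzmk UMIs. Having no trbc1 UMI thus does not by itself mark a cell as other than a T cell. Of all 22 cells, 7 had the T cell list at 0. Among the 12 with trbc1, 1 cell stood out for the natural killer and cytotoxic list, at 18260 CPM. It had 80 UMIs of the chemokine gene ccl38.6, 14 of the NK-lysin gene nkl.1, 7 of il2rb and 0 of gzmk. In the 7 mitosis-rich marrow cells, this one included, gzma, prf1.1, prf1.3, prf1.9, nkl.3, nkl.4 and eomesa were at 0. This cell also had the highest score, with 23 UMIs of the set per 1000 and 299 in all. In the 22 cells there were 0 UMIs of cd8a, cd8b and rag1, and 7 cells had a cd4-1 UMI. At a median of 15630 UMIs per cell, 0 rag1 UMIs in 441205 allow up to 6.80 CPM, where the thymus mitosis-rich cells stood at 2378 CPM.

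A list of stem and progenitor genes, such as myb and gata2b, stood at 306 CPM in the 22 cells (257 to 362) and 70.6 in the other marrow cells (63.1 to 78.8). The 22 cells did not carry it evenly: the median cell had 0 CPM of the list and the highest 1637 CPM. Of its 12 genes 9 had a UMI in the 22 cells and 10 in the others. The replication list stood at 2810.5 CPM in the 22 cells and 619 in the others, and the other mitosis list at 18325 and 1742 CPM. So the cells picked by 1 set of mitosis genes also carried mitosis and replication genes that the score did not use.

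Both scale cells had a trbc1 UMI and no cd4-1, cd8a or cd8b UMI. They had 2854 and 12729 UMIs and 27 and 104 UMIs of the set, from 18 and 32 members. Their natural killer and cytotoxic list stood at 12964 and 19405 CPM, against 3785 CPM in the other scale cells. The chemokine gene ccl38.6 had 22 and 115 of the 284 list UMIs in both cells together. In the first cell only 2 of the 14 list features had a UMI, the chemokine genes ccl38.6 and ccl36.1. Over both cells 5 had one, while gzmk, gzma, prf1.1, prf1.3, prf1.9, nkl.3, nkl.4, tbx21 and eomesa were at 0 in both. With 2 cells, no estimate of which scale lymphocytes divide can be made.

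**Figure D3:**
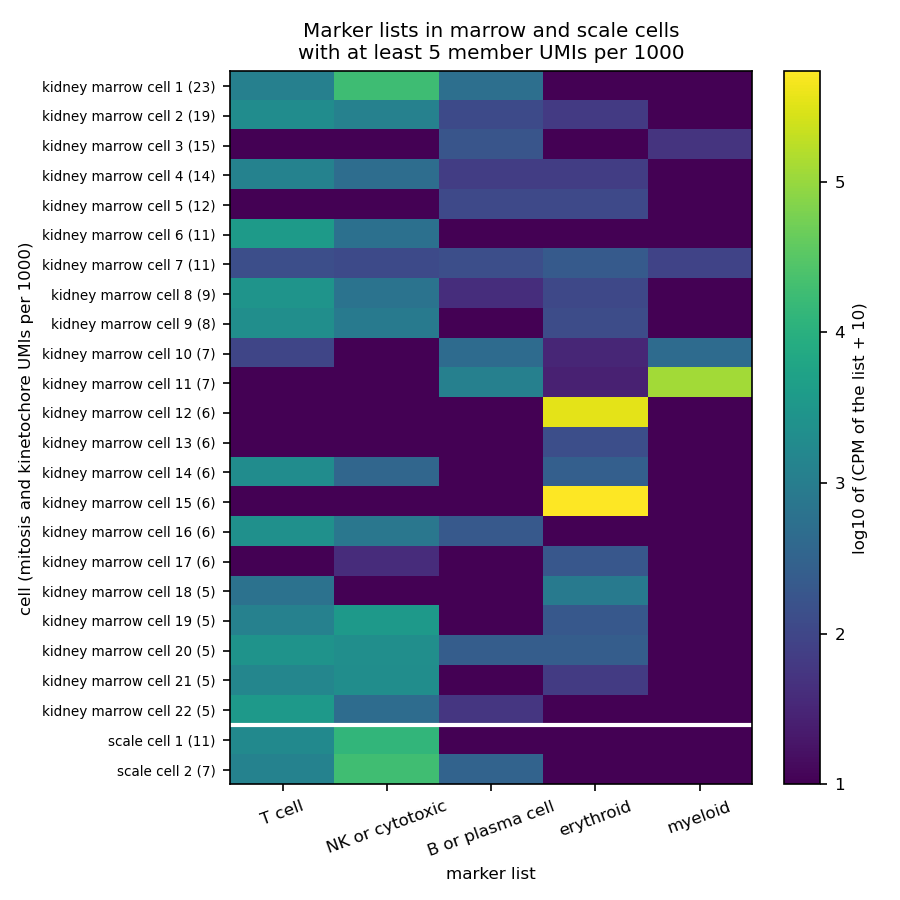
Summed level of 5 marker lists (columns), as log10 of CPM plus 10 (color), in each marrow or scale cell with at least 5 UMIs of the set per 1000 (down the page, kidney marrow above scale, score in parentheses). Of the 22 marrow cells, 2 are bright for the erythroid list, 1 for the myeloid list and 1 for the natural killer and cytotoxic list, and both scale cells are high for the last of these.

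In the thymus the cells were divided by whether rag1, cd4-1 and cd8b had a UMI after thinning. A UMI does not show that a cell expressed the gene: of the 6 thymus cells with the erythroid or myeloid list at 100000 CPM or more, at a median of 1392 UMIs, 3 had a rag1 UMI, 1 a cd4-1 UMI and 3 a cd8b UMI. Of cells with a rag1 UMI 11.9% were mitosis-rich (10.6 to 13.2%, 289 of 2431), and of cells with none 7.01% (5.34 to 9.01%, 56 of 799). By co-receptor, the share was 16.3% in cells with neither cd4-1 nor cd8b (14.0 to 18.8%, 159 of 976), 12.6% with cd8b only (10.1 to 15.5%, 80 of 634), 8.53% with cd4-1 only (6.05 to 11.6%, 36 of 422) and 5.84% with both (4.58 to 7.33%, 70 of 1198). Cells with neither thus had the highest share and cells with both the lowest, while the intervals of neighbours in this order overlapped. Over all depths, the highest share among the crossed groups with at least 100 cells was 25.3% (21.4 to 29.4%), in the 475 cells with rag1 and neither co-receptor. The lowest was 2.40% (0.498 to 6.85%), in the 125 with cd4-1 only and no rag1.

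Depth moved with the groups. The median UMIs per cell were 4077 with neither, 1963.5 with cd8b only, 1946 with cd4-1 only and 1474.5 with both. Within cells of 5000 UMIs or more, 29.3% of those with neither (25.1 to 33.9%, n = 426) and 42.4% of those with both (29.6 to 55.9%, n = 59) were mitosis-rich. From 2000 to under 5000 UMIs, 6.98% with neither (4.37 to 10.5%) and 12.7% with both (9.16 to 16.9%) were. Below 2000 UMIs the shares were 5.22% with neither and 0.722% with both. Neither against both therefore turned round above 2000 UMIs, with overlapping intervals. The groups with 1 co-receptor took other places: cd8b only had 38.4% and cd4-1 only 28.6% from 5000 UMIs, 17.3 and 12.7% from 2000 to under 5000, and 0.920 and 0.463% below 2000. No order of the 4 groups held in all 3 ranges. Of the crossed groups above, cells with rag1 and neither, at a median of 4573 UMIs, were highest only below 2000 UMIs, at 10.2%. From 5000 UMIs they had 38.7%, against 43.6% with rag1 and cd8b only. From 2000 to under 5000 they had 16.3%, against 22.1%, and the intervals overlapped in both ranges. Cells with cd4-1 only and no rag1 were not lowest from 5000 UMIs, at 25.0% of 8 cells, against 18.9% with neither and no rag1. When status was read from all UMIs of a cell, in place of the 1000, the shares were 11.4% with neither and 11.6% with both.

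For rag1 the direction was the same in each range. The share was 38.7% with a rag1 UMI (34.0 to 43.6%) and 20.8% with none (15.9 to 26.4%) from 5000 UMIs upward. From 2000 to under 5000 it was 16.1% (13.4 to 19.1%) and 1.43% (0.392 to 3.63%). Below 2000 it was 1.63% (1.03 to 2.46%) and 0.364% (0.00921 to 2.01%), and there the intervals overlapped. With status from all UMIs it was 12.0% with rag1 and 2.82% without. Under another thinning seed it was 10.8% with rag1 (9.55 to 12.1%) and 9.47% without (7.55 to 11.7%), and where at least 2 UMIs were asked for, it was 10.1% in cells below that. So the gap in all cells together was not stable. Within ranges of depth it was read under 1 thinning seed only, so whether it holds there under another was not tested.

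**Figure D4:**
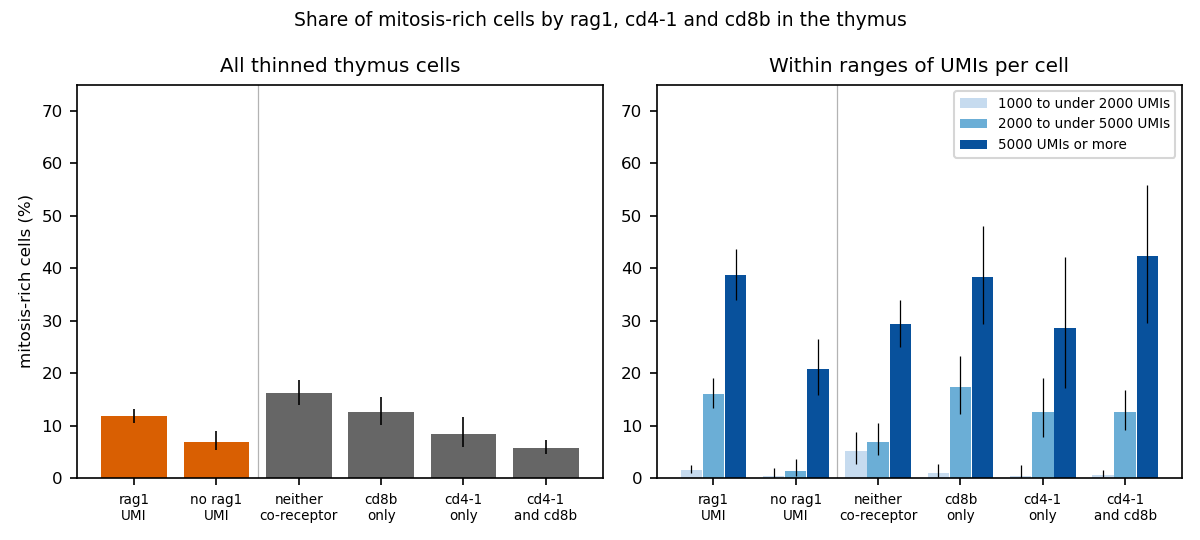
Share of thymus cells that were mitosis-rich (%), by rag1, cd4-1 and cd8b UMIs after thinning, over all 3230 cells (left) and within ranges of UMIs per cell (right). Bars are 1 library's shares with exact binomial 95% intervals. The share with neither co-receptor was 16.3% and with both 5.84% over all cells, but 29.3 and 42.4% from 5000 UMIs upward.

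Summed over the UMIs of each group, the set stood at 5866 CPM with neither co-receptor, 5559 with cd8b only, 4643 with cd4-1 only and 3177 with both. For neither over both this is a ratio of 1.85 (1.80 to 1.89), which turned to 0.827 (0.799 to 0.855) in cells of 5000 UMIs or more and to 0.877 (0.859 to 0.895) with status from all UMIs. The members did not follow this order to the same degree. For neither over both, 18 of 47 members were at least 2-fold higher and 1 lower, where 11.0% of all features were higher and 13.1% lower. The histone-fold gene cenps had a ratio of 7.90, cenpx of 3.88, cdca7b of 3.47, cdca7a of 3.21, the condensin II gene ncaph2 of 3.18 and cenph of 3.12, and the member that was lower was cdca4, at 0.472. The ratio of cenps came from 25.5 CPM with neither and only 3.23 with both, so few UMIs lie behind it. For cd8b only over both, 13 of 44 were higher, where 4.09% of all features were, and 0 lower, where 1.79% were, led by cdca7b at 2.84 and cdca7a at 2.74. For cd4-1 only over both, 1 of 41 was higher, where 2.98% of all features were, and 0 lower, where 1.93% were.

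In the replication list, 43 of 47 genes were at least 2-fold higher with neither than with both, where 11.0% of all features were. This list was not recounted at like depth or with status from all UMIs, and cells with neither were deeper. For cells with over cells without a rag1 UMI, 0 of 48 members were at least 2-fold higher and 0 lower, where 4.83% of all features were higher and 5.99% lower. The levels behind these were 5438 CPM with a rag1 UMI and 4399 without. In cells of 5000 UMIs or more, the neither over both count of members came down to 1 of 47 higher and 2 lower, where 3.92% of all features were higher and 15.7% lower. With status from all UMIs it came to 1 higher and 0 lower, where 5.77 and 8.28% of all features were. With that status, rag1 over no rag1 came to 18 of 48 higher and 0 lower, where 3.87 and 7.51% of all features were, so which members pass depends on how a cell is placed in a group.

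Within the thymus a list of T cell genes stood at 5382 CPM in mitosis-rich cells and 8015 in the others. This was not particular to mitosis-rich cells: the list stood at 5058 CPM in all cells with at least 5 UMIs of the set and 8992 in those with fewer. Mitosis-rich cells were deeper, with a median of 5987 UMIs against 1822, and the levels below were not compared at like depth. The co-receptor gene cd4-1 stood at 320 CPM in mitosis-rich cells (298 to 343) and 651 in the others (634 to 668), cd8b at 564 in mitosis-rich cells and 893 in the others, and cd8a at 162 in mitosis-rich cells and 281 in the others. The receptor gene trbc1 stood at 2031 CPM in mitosis-rich cells and 3205 in the others, and rag1 at 2378 (2318 to 2439) in mitosis-rich cells and 3169 (3132 to 3206) in the others. Yet rag1 had a UMI after thinning in 83.8% of mitosis-rich cells and 74.2% of the others, while cd4-1 had one in 30.7 and 52.5% and cd8b in 43.5 and 58.3%. These shares come from 1 thinning seed. For rag1 they restate the split of cells given above, whose gap was not stable under another seed. The partner gene rag2 went the other way from rag1 in level, at 130 CPM in mitosis-rich cells (116 to 145) and 98.0 in the others (91.6 to 105). Of the lists of other lineages, the erythroid list stood at 23.4 CPM in mitosis-rich cells and 385 in the others, the myeloid list at 7.25 and 57.5, the B cell list at 13.7 and 35.3 and the stem and progenitor list at 169 and 306. The natural killer and cytotoxic list hardly differed in total, at 81.8 CPM in mitosis-rich cells and 81.4 in the others. Of its 14 features only 3 had a UMI in mitosis-rich cells and 8 in the others, so like totals do not mean like genes. The erythroid level of the others came from few cells, with a median of 0 and a highest value of 462755 CPM.

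Each member was also scored against the rest of the set: cells were called rich by the UMIs of the other members, and the member's CPM in them was set over that in the remaining thymus cells. The rich cells thus differed by member, from 258 cells for mki67 to 345 for bub1ba. Mitosis-rich cells were deeper, as given above, and these ratios were not compared at like depth. Over the 41 members with at least 200 UMIs the median ratio was 3.88. The most concentrated were kpna2 at 11.1 (9.93 to 12.5), aurka at 9.29 (7.44 to 11.7) and ccnb1 at 8.79 (7.81 to 9.91), genes that peak in G2 and mitosis. The least were cdca4 at 0.827 (0.640 to 1.06), aurkaip1 at 0.935 (0.722 to 1.20) and cenpx at 1.41 (1.18 to 1.67). The intervals of cdca4 and aurkaip1 included 1, so their level in cells rich in the other members could not be told from that in the remaining cells.

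A score that did not use the set gave the members another order. Thymus cells with at least 10 UMIs of the DNA replication list among 1000 (replication-high, 263 cells) were set over those with fewer (replication-low, 2967 cells). In replication-high cells 17 of 48 members were at least 2-fold higher and 2 lower, where 6.47% of all features were higher and 9.42% lower. Highest were cenph at 4.91, cenpo at 4.07 and cenps at 3.58 of the centromere network, cdca7a at 3.61 and cdca7b at 2.97, and the condensin II genes ncaph2 at 3.51 and ncapd3 at 3.20. Lowest were aurka at 0.393, kpna2 at 0.458, aspm at 0.526, ccnb1 at 0.563, cenpf at 0.585 and plk1 at 0.626. Between them lay mki67 at 1.09, aurkb at 1.42, ccna2 at 1.87 and ncapg at 2.00. The Ndc80 complex lay there too, with ndc80 at 1.21, nuf2 at 1.38, spc25 at 1.81 and spc24 at 2.16. Genes of the kinetochore thus stood on both sides of 1.

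Replication-high cells were deeper, with a median of 6613 UMIs against 1853. Among cells with at least 5000 UMIs the medians were 8341.5 in replication-high and 8313 in replication-low cells, and the ratios of the genes named here were lower there: cenph stood at 2.92, cenpo at 2.45, cdca7a at 1.88, ncaph2 at 2.03, mki67 at 0.687, ccnb1 at 0.365, kpna2 at 0.286 and aurka at 0.252. Of these, cenph, cenpo, cdca7a and ncaph2 were above 1 and ccnb1, kpna2 and aurka below 1 both in all cells and in that range. Other genes passed below 1 there, among them the centromere network genes cenpw, at 1.55 in all cells and 0.966 in that range, and cenpi, at 1.44 and 0.919, and the spindle gene knstrn, at 1.36 and 0.912. Of the Ndc80 complex, ndc80 came to 0.779 and nuf2 to 0.847 in that range, while spc25, at 1.08, and spc24, at 1.23, stayed above 1. Summed over the set, replication-high over replication-low was 1.15 in all cells and 0.716 in that range. The number past 2-fold in that range was 5 higher and 12 lower of 47, where 4.11 and 3.11% of all features were, and under another seed 15 higher and 7 lower of 48, where 6.35 and 9.70% of all features were. Of the mitosis-rich cells, 49 were replication-high and 296 replication-low, and of the other cells 214 and 2671. For replication-low over replication-high among the mitosis-rich cells alone, 2 of 46 members were at least 2-fold higher and 7 lower, where 1.02% of all features were higher and 4.81% lower.

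**Figure D5:**
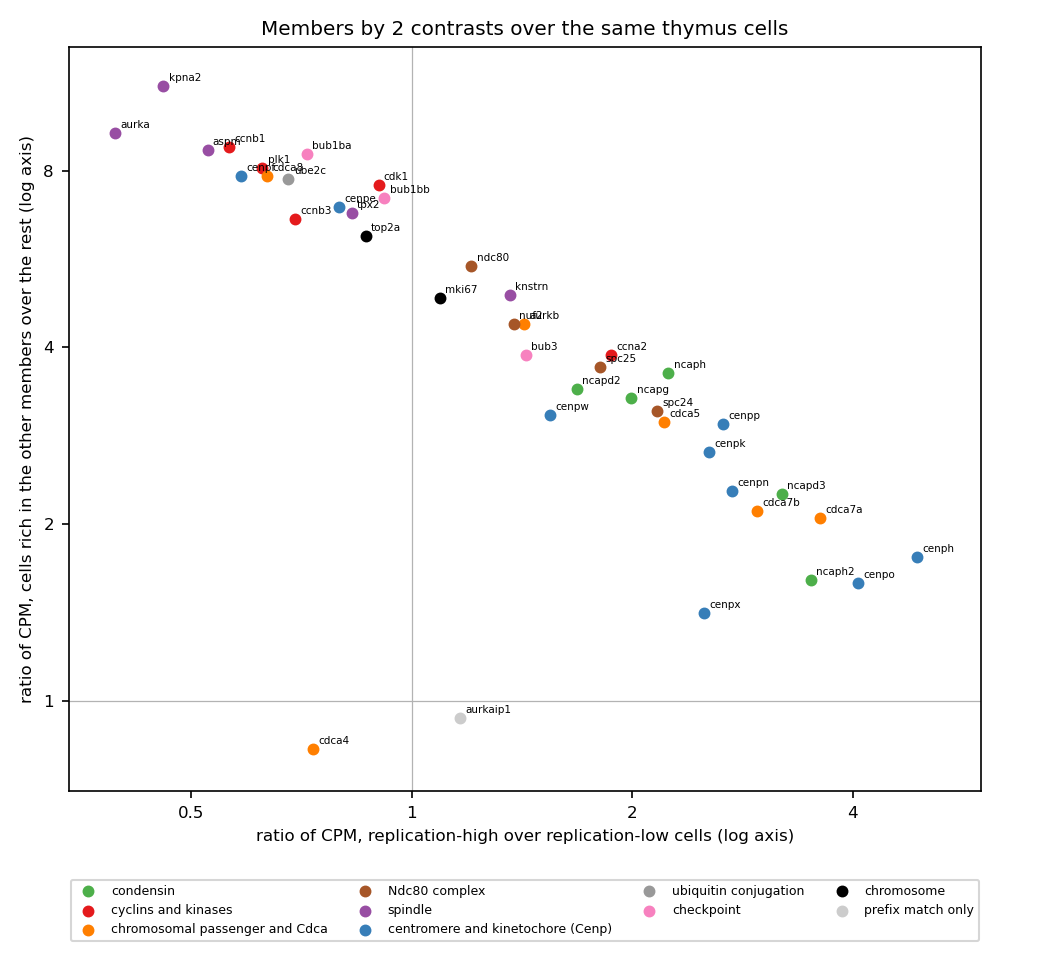
For each of 41 members, the CPM ratio of replication-high over replication-low thymus cells (x, log axis) against that of cells rich in the other members over the remaining cells (y, log axis), colored by role, in 1 library. Genes such as kpna2 (0.458 and 11.1) and ccnb1 (0.563 and 8.79) lie at the upper left, cenph (4.91) and cenpo (4.07) at the lower right, and cdca4 and aurkaip1 below 1 on the y axis. All points come from the same thymus cells, split on the y axis anew for each member and not matched for depth. Their alignment is therefore a description.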

How the data were processed

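RNA was counted in 3 droplet libraries, 1 per tissue. The deposited values are raw UMI counts per feature and barcode, made by the authors with Cell Ranger, with no normalization. The submitters' processing notes name GRCz11, Cell Ranger 6.0.0 and Seurat 4.3.0, while per the file headers cellranger 6.0.0 wrote those of thymus and scale, and Cell Ranger 4 that of the marrow. The marrow matrix is unfiltered, with 672506 barcodes. No value columns of other series were present.

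A barcode was kept as a cell from 500 UMIs and 250 genes upward, if mitochondrial UMIs made up 10% or less. A marrow barcode also needed 1394.89 UMIs, the percentile 99 of the 3000 largest totals divided by 10. Scrublet in scanpy 1.11.5 (expected rate 0.05, seed 1) called 0 thymus, 0 marrow and 16 scale cells, and these were left out, so doublets in the thymus and marrow were not controlled. Scale barcodes left out as doublet calls are described in the closing part.

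For each library, UMIs of a feature were added up over cells and given per 1000000 UMIs (CPM), with an exact Poisson interval. Ratios have exact conditional binomial intervals and shares exact Clopper-Pearson intervals, all at 95% and for counting error only. A count of 0 has the limit of 3 counts. No test and no p-value is given, since each group is 1 library. Work was done in Python 3.11.15 with numpy 2.4.6, scipy 1.17.1 and pandas 2.3.3, and the ratio and thinning steps were tested on simulated data.

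Named members are the 3 with the most UMIs in each role, those higher in marrow or scale than in thymus, and the 3 most and the 3 least concentrated in mitosis-rich thymus cells. Others were named after their values were seen. The members and lists were chosen with earlier results of these data known. The contrast of replication-high with replication-low cells over all thymus cells was added after the data were seen. Promoter, mature and protein sequences were not analysed here.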

Additional observations from a re-analysis of the deposited data

Results flagged for a closer look

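Barcodes that the filters left out also carried the mitosis and kinetochore genes above the limit of a count of 0. In the thymus, 123 barcodes over the mitochondrial limit held 348 UMIs of the set, or 3002 CPM (2695 to 3335), below the 4815 CPM of the thymus cells kept. In the marrow, 6 barcodes over that limit held 15 UMIs, or 907 CPM (508 to 1496). The 100 marrow barcodes under the minimum of UMIs held 94 UMIs, or 1122 CPM (906 to 1373), close to the 1030 CPM of the marrow cells kept and above the 523 CPM of barcodes with 1 to 99 UMIs. In the scale, 36 barcodes over the mitochondrial limit held 4 UMIs, or 130 CPM (35.5 to 333). The 16 scale barcodes called as doublets held 12 UMIs, or 165 CPM (85.4 to 289), and their interval overlapped that of the 253 CPM in the scale cells kept. None of these barcodes entered a comparison.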

How the results depend on the processing

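Each group is 1 library and intervals cover counting error only, so differences between fish and depth effects limit what these values show. No paired analysis was possible because the groups hold 1 sample each and no test was made. Among the ratios between libraries that were recomputed, 0 changed direction. The 168 recomputed values of named members stayed within their intervals, but they came from changes of the cell filters only. Leaving out a cell, equal cell weight and the other denominator were applied to the summed levels, so the 168 values do not cover them. Without its highest cell, mki67 in the scale fell from 17.2 CPM (10.8 to 26.0) to 4.74. Summed levels in thymus, marrow and scale were 2511, 309 and 186 CPM with each cell weighing the same, 7551, 1920 and 423 with mitochondrial, ribosomal and hemoglobin genes out of the denominator, and 4376, 899 and 169 without kpna2, cdca4, the cdca7 genes, cenps and cenpx. The thymus stood at 5093 with a minimum of 1000 UMIs per cell and, with 4 features added by current symbol, at 5019 with the marrow at 1078. Without the cell holding most of the set, the marrow came to 902 and the scale to 174. Thymus over marrow took the values 4.94, 8.13, 5.32, 3.93 and 4.87 (minimum, cell weight, that cell left out, denominator, those genes left out). Thymus over scale took 13.5, 27.6 and 25.9 and marrow over scale 1.66, 5.19 and 5.33 (cell weight, cell left out, genes left out).

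The share of mitosis-rich cells with at least 5 UMIs was 18.3% in the thymus and 2.24% in the marrow, 19.05% with rag1, 16.1% without, 30.5% with neither, 19.7% with cd8b only, 14.7% with cd4-1 only and 8.93% with both. With at least 20 it was 2.32, 0.102 and 0% in thymus, marrow and scale, 2.55 and 1.63% with and without rag1, and 2.56, 3.15, 3.32 and 1.34% for neither, cd8b only, cd4-1 only and both. At 1% of all UMIs, without thinning, it was 8.79% in the thymus and 0% in the scale. Another thinning seed gave 9.47% without rag1 and 0% in the scale. Status from all UMIs gave 2.82% without rag1, 11.4% with neither, 9.25% with cd8b only and 11.6% with both. Status by 2 UMIs gave 10.1% without rag1, 7.89% with cd8b only and 3.31% with both.

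At 4-fold, 25 members were higher in thymus than marrow. Members higher with neither than both co-receptors numbered 11 under another seed, where 9.39% of all features were higher, 1 (0 lower) with status from all UMIs (5.77% of all features higher), 41 with status by 2 UMIs (11.5%) and 1 (2 lower) in cells from 5000 UMIs (3.92%). With rag1 over without, 18 were higher by status from all UMIs (3.87%). In replication-high cells 7 were lower under another seed (9.70% of all features lower), 0 lower at a minimum of 5 replication UMIs (11.3%), and 5 higher and 12 lower in cells from 5000 UMIs (4.11 and 3.11%). The summed ratio of neither over both was 1.72 under another seed and 2.86 with status by 2 UMIs, but turned to 0.877 with status from all UMIs and 0.827 in cells from 5000 UMIs. With rag1 over without it was 1.06, 2.22 and 1.33 (another seed, all UMIs, 5000 UMIs) and turned to 0.995 with status by 2 UMIs. Replication-high over replication-low was 1.62 at the minimum of 5, and turned to 0.993 under another seed and 0.716 in cells from 5000 UMIs. The alternatives for these counts and ratios were chosen after seeing the data. The cause of these changes was not tested.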

Other observations

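A table of current symbols brought in 4 features that the files name otherwise. Under the symbol cdca3, a trigger of mitotic entry, the feature ENSDARG00000070656 had 1714 UMIs in thymus cells, 163 in marrow cells and 1 in scale cells. The centromere network genes cenpu (ENSDARG00000088924) and cenpt (ENSDARG00000091271) had 392 and 427 UMIs in thymus cells, 35 and 38 in marrow cells and 3 and 2 in scale cells. The fourth, CCNB1IP1, had 0 UMIs in thymus cells, 5 in marrow cells and 0 in scale cells. With these 4 the summed level was 5019 CPM in the thymus and 1078 in the marrow.

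The regulatory T cell gene foxp3a had 1 UMI in the 345 mitosis-rich thymus cells and 116 in the 2885 others, 0.403 against 13.05 CPM. In the 22 marrow cells with at least 5 UMIs of the set per 1000, foxp3a had 15 UMIs in 2 cells, 14 of them in 1 cell that also had cd4-1 and trbc1 UMIs.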
